A study of Homo sapiens with 4 samples.

Results

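Cytokines and chemokines are secreted proteins by which cells signal to each other, and many of their genes are targets of NF-kB, a family of dimeric transcription factors. The set described here holds 40 such genes, chosen by symbol from the 58219 genes of the count table: chemokines, colony-stimulating factors, interleukins, their receptors, adhesion molecules and other effectors, the NF-kB subunits, and the inhibitors and feedback genes of the pathway. They were measured in U87, an established human glioblastoma line, after 24 h in medium with 50 mM carnosine (2 libraries) or in the same medium without it (2 libraries). Carnosine is a dipeptide of beta-alanine and L-histidine. Both groups grew in high-glucose medium with fetal bovine serum and were given fresh medium 24 h after seeding. All cells were of 1 line in culture, and the labels name no added cell type and no genetic change.

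In resting cells NF-kB dimers are held in the cytoplasm by IkB proteins. Signals from interleukin-1, tumour necrosis factor or Toll-like receptors activate kinases that mark IkB for destruction, and the freed dimers enter the nucleus and bind short DNA motifs called kB sites. Genes for IkB-alpha and A20 are themselves induced and end the response. Glioblastoma cells are known to secrete several of these factors, among them ligands that act on macrophages and microglia. The measurements below are of mRNA in whole cultures, in which fewer cells expressing a gene and less RNA per cell cannot be told apart.

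The 4 libraries held between 51632970 and 71766267 counts. Within each group the 2 libraries differed by more than sampling noise (chi-square per degree of freedom 33.8 for control, 53.0 for carnosine), so each counted as a library of its own. Nothing in the labels says that they came from separate cultures, so the p-values measure the spread between these libraries, which may be technical. With 2 libraries against 2, an exact permutation test of a single gene cannot give a p below 0.333, so calls rest on edgeR's quasi-likelihood test, which borrows spread across genes, at an adjusted p under 0.05. Levels are in CPM, counts scaled to a library size of 1e6, and errors of log2 fold changes are standard errors (SE). Over all 16340 genes tested, 1358 were called, 8.31%, with 645 (3.95%) higher and 713 (4.36%) lower with carnosine. At an unadjusted p under 0.05, edgeR's test gave 4473 genes, 27.4%, and counts of members at that level are read beside this share.

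Of leukocyte and microglia markers, 5 of 10 (AIF1, SPI1, P2RY12, CD3E and MS4A1) had 0 counts in every library, and 8 of 10 had at most 5 counts in any library. CD14, the only 1 with enough counts to test, had 20 and 23 counts in control and 24 and 16 with carnosine. The list's summed level ranged from 0.338 to 0.580 CPM in control and from 0.357 to 0.466 CPM in carnosine libraries. Of 8 astroglial and glioma markers, VIM and CD44 were abundant, NES had 1426 to 2583 counts and OLIG2 had 105 to 253. GFAP had 4 to 16 counts, SOX2 had at most 2, and S100B and FABP7 had 0. The summed level of this list was 8200 to 8735 CPM in control and 6926 to 7189 CPM with carnosine. VIM, most of the sum, had 7420 and 7045 CPM in control and 5583 and 5629 CPM with carnosine (adjusted p = 0.139), while CD44 had 1281 and 1107 CPM in control and 1317 and 1522 CPM with carnosine (adjusted p = 0.302). Neuron markers summed to 25.3 to 27.6 CPM in control and 19.5 to 22.8 CPM with carnosine, and epithelial markers to 1.36 to 1.93 and 2.09 to 2.23 CPM. Of the neuron markers, SNAP25 had 18.04 and 14.6 CPM in control and 11.5 and 9.02 CPM with carnosine (adjusted p = 0.0625), SYT1 overlapped between groups, and RBFOX3 and SLC17A7 had 0 to 4 counts. The endothelial list summed to between 2.35 and 2.98 CPM in control and between 5.88 and 7.07 CPM with carnosine. Most of it was PECAM1, an adhesion molecule, which rose 2.42-fold (adjusted p = 0.0215) and lost its call without control replicate 1 (0.0583). ESAM, which passed the filter through its carnosine libraries alone, had 5 counts in each control and 17 in each carnosine library (adjusted p = 0.0877). VWF had 14 and 17 counts in control and 42 and 14 with carnosine (adjusted p = 0.317). All 3 tested endothelial markers had a log2 fold change above 0, a sign that the filter favoured for ESAM. Over all genes tested, 8191 of 16340 were above 0. CDH5, the cadherin of endothelial junctions, had 0 counts in every library, and TIE1 had at most 1. Any part of these levels in the results below was not tested.

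With carnosine, 5 of the 40 genes passed the threshold. CCL2, CSF1 and IL1R1 rose, and CSF3 and CSF1R fell. Of the other members, 27 were tested and not called, and 8 had too few counts to test. The share called, 5 of the 32 tested, was 15.6%, beside 8.31% of all genes tested. The median log2 fold change of these 32 genes was 0.12, beside 0.000896 over all genes, with 20 values above 0 and 12 below. The libraries of the 2 groups did not overlap in 17 of the 32 genes (53.1%), beside 56.5% of all genes. Of the 32, ICAM1 passed the filter on low counts through its carnosine libraries alone. IL34 reached the filter's level in 1 control and 2 carnosine libraries, so its controls alone would not have passed. The counts over tested genes therefore describe the table and do not weigh the set.

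**Figure D1:**
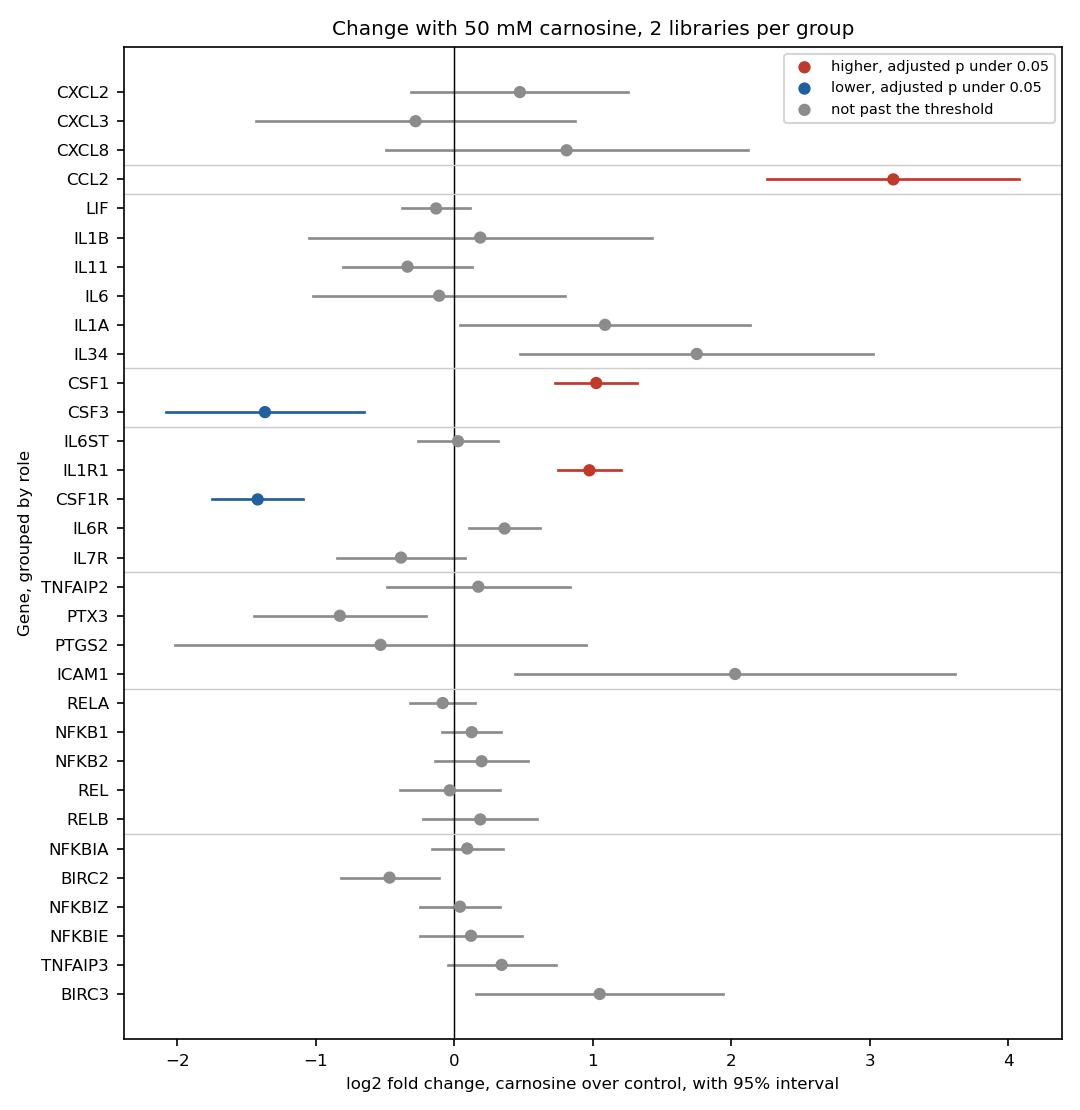
Log2 fold change (carnosine over control, x axis) of each of the 32 tested members, grouped by role, with bars for the approximate 95% interval. The 5 called genes are CCL2, CSF1 and IL1R1 on the right of 0 and CSF3 and CSF1R on the left; the subunit intervals all span 0.

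CCL2, the main chemokine that attracts monocytes, showed the largest fitted change of the 32 tested genes. CCL2 (chr17:34255218-34257203, GRCh38, plus strand) had 0.422 and 0.273 CPM in control replicates 1 and 2, and 2.46 and 3.89 CPM in carnosine replicates 1 and 2. Both carnosine libraries were above both controls, and the level stayed low on a per-length scale, at 0.175 CPM per kilobase of exon in control and 1.6 with carnosine. The means were 0.347 ± 0.106 and 3.18 ± 1.01 CPM (SD, n = 2 each), a 9.0-fold rise (log2 fold change 3.17 ± 0.38, 95% interval 2.26 to 4.08; adjusted p = 0.0123). The counts behind it were 30, 16, 148 and 196. The other CC chemokines were at the limit of detection. CCL5 (RANTES) and CCL7, a relative of CCL2 that also attracts monocytes, had 0 counts in all 4 libraries, which allows up to 3 counts, or 0.0422 to 0.0596 CPM depending on the library and for counting error only. CCL20, which attracts cells that carry CCR6, had 1 and 4 counts in control and 0 in both carnosine libraries.

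CSF1, the growth factor that macrophages and microglia need, was the most abundant member per length. CSF1 (chr1:109910242-109930992, plus strand) had 269.6 and 264 CPM in the controls and 589 and 497 CPM with carnosine. Both carnosine libraries lay far above both controls. The rise from 267 ± 4.24 to 543 ± 65.2 CPM (SD, n = 2 each) was 2.04-fold (log2 fold change 1.03 ± 0.12; adjusted p = 0.0123). In CPM per kilobase of exon, CSF1 went from 49.2 to 100.2, ahead of TNFAIP2 (37.5 in control) and NFKBIA (34.7 in control). IL34 encodes the other ligand of the CSF1 receptor. Its level was 0.183 and 0.153 CPM in control and 0.399 and 0.755 CPM with carnosine. The groups did not overlap, but IL34 was not called (adjusted p = 0.0906).

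CSF1R, the receptor tyrosine kinase that binds CSF1 and IL-34, went the other way. CSF1R (chr5:150053291-150113372, minus strand) had 24.6 and 23.0 CPM in control replicates 1 and 2 and 9.69 and 8.06 CPM in carnosine replicates 1 and 2. Both carnosine libraries were below both controls, and the replicates of each group lay close together. The mean fell from 23.8 ± 1.13 to 8.88 ± 1.15 CPM (SD, n = 2 each), 2.67-fold (log2 fold change -1.42 ± 0.14; adjusted p = 0.00932). The ligand CSF1 rose and its receptor fell in the same libraries. Of the leukocyte and microglia markers in these libraries, PTPRC had at most 8 counts and CD14 had 16 to 24. In control cells CSF1R stood at 4.61 CPM per kilobase of exon and CSF1 at 49.2, and with carnosine at 1.72 and 100.2.

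CSF3, or G-CSF, drives the production of neutrophils. CSF3 (chr17:40015361-40017813, plus strand) had 6.5 and 10.4 CPM in control and 2.56 and 3.99 CPM with carnosine. The groups did not overlap, yet each pair of replicates was spread widely. The mean fell from 8.43 ± 2.73 to 3.28 ± 1.01 CPM (SD, n = 2 each), 2.58-fold (log2 fold change -1.37 ± 0.30; adjusted p = 0.0414). The call was lost without control replicate 2 (-0.99, adjusted p = 0.0991) and without carnosine replicate 1 (-1.08, adjusted p = 0.0602). CSF2, or GM-CSF, had too few counts to test: 11 and 8 in control, 1 and 2 with carnosine. The summed ratio of carnosine to control, scaled for library size, was 0.185 (exact 95% interval 0.0352 to 0.63, counting error only). That interval leaves out the spread between libraries. With no filter on low counts, edgeR's fit gave CSF2 a log2 fold change of -2.32 ± 1.36 (adjusted p = 0.352).

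**Figure D2:**
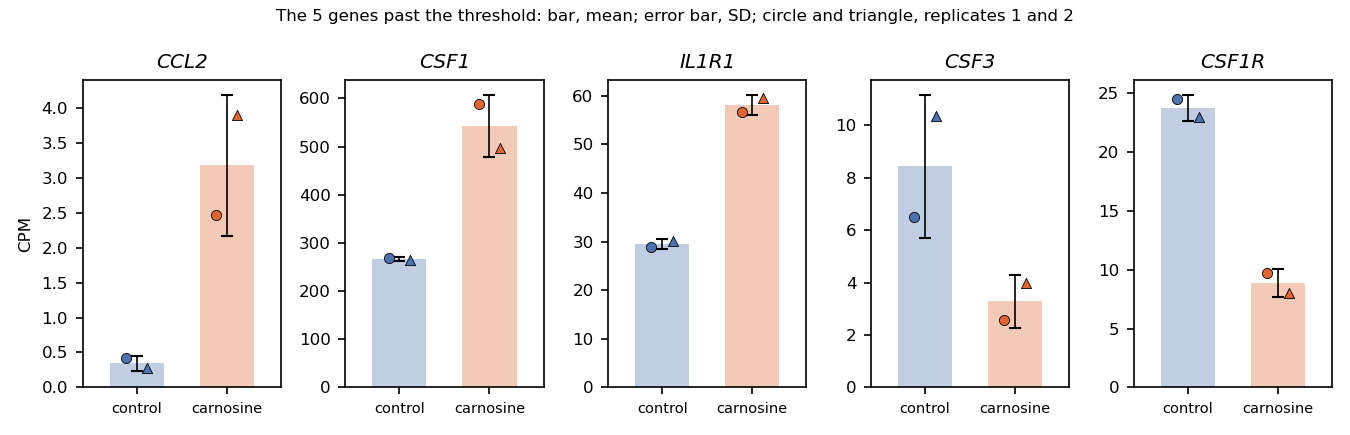
CPM of the 5 called members in each of the 4 libraries (y axes start at 0), with bars for the group means and error bars for the SD (n = 2). The carnosine libraries of CCL2, CSF1 and IL1R1 lie above both controls, and those of CSF3 and CSF1R below both.

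IL1R1, the receptor through which interleukin-1 alpha and beta signal to NF-kB, rose. IL1R1 (chr2:102064544-102179874, plus strand) had 28.8 and 30.2 CPM in the controls and 56.6 and 59.6 CPM with carnosine. Replicates nearly coincided in both groups. The mean went from 29.5 ± 0.978 to 58.1 ± 2.14 CPM (SD, n = 2 each), a 1.97-fold rise (log2 fold change 0.98 ± 0.10; adjusted p = 0.00932). Its ligands were not called. IL1A had 0.745 and 1.74 CPM in control and 2.05 and 3.22 CPM with carnosine, 1.09 ± 0.44 on the log2 scale (adjusted p = 0.168). It was called without control replicate 2 (1.81, adjusted p = 0.0466). IL1B had 10.4 and 31.9 CPM in control and 15.4 and 32.8 CPM with carnosine. For IL1B the replicates differed more than the groups did, by up to 3.07-fold, and its fold change of 0.19 ± 0.52 had an adjusted p of 0.859.

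The other receptors were not called. IL6ST, or gp130, the shared signalling chain of IL-6, LIF and IL-11, was the most abundant receptor of the set per length, at 29.8 CPM per kilobase of exon in control. Its libraries overlapped, at 262 and 291 CPM in control and 262 and 303 CPM with carnosine (log2 fold change 0.03 ± 0.12; adjusted p = 0.913). IL6R, the chain that binds IL-6, had 21.8 and 23.1 CPM in control and 29.9 and 28.0 CPM with carnosine (0.36 ± 0.11; adjusted p = 0.0828). Both carnosine libraries were above both controls without passing the threshold. IL7R, the receptor for IL-7 and TSLP, had 16.6 and 22.7 CPM in control and 13.0 and 17.1 CPM with carnosine (-0.38 ± 0.20; adjusted p = 0.261), and its groups overlapped.

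The ligands of gp130 gave no call. LIF, which keeps mouse embryonic stem cells undifferentiated, had 62.0 and 56.4 CPM in control and 51.4 and 56.9 CPM with carnosine (-0.13 ± 0.10, adjusted p = 0.473). IL6, the acute-phase cytokine, had 2.14 and 2.83 CPM in control and 1.46 and 3.16 CPM with carnosine (-0.11 ± 0.38; adjusted p = 0.891). Replicates of IL6 in the carnosine group differed 2.16-fold, more than the groups. IL11 had 6.84 and 6.27 CPM in control and 4.44 and 5.96 CPM with carnosine, with both carnosine libraries lower (-0.34 ± 0.20; adjusted p = 0.325). IL32 had 1 count in 1 carnosine library and 0 elsewhere. Of the 6 interleukins and gp130 ligands tested, edgeR called 0, with 2 at an unadjusted p under 0.05 (27.4% of all genes), and DESeq2 and limma-voom also called 0.

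The CXC chemokines that attract neutrophils, CXCL1, CXCL2, CXCL3 and CXCL8, are textbook NF-kB targets. None of the 3 tested was called by edgeR, with 0 at an unadjusted p under 0.05 (27.4% of all genes), and DESeq2 and limma-voom called 0 as well. CXCL2 had 1.62 and 2.74 CPM in control and 2.48 and 3.57 CPM with carnosine (0.47 ± 0.33; adjusted p = 0.407). CXCL3 had 0.366 and 0.597 CPM in control and 0.316 and 0.477 CPM with carnosine. CXCL8, or interleukin-8, had 0.239 and 0.409 CPM in control and 0.366 and 0.774 CPM with carnosine. In all 3 the groups overlapped, and replicate 2 was the higher library of both groups. The same replicate number was the higher in both groups in 65.2% of all genes tested and 68.8% of tested members. CXCL1 had 1 count in control replicate 2 and 0 elsewhere. CXCL12, which retains stem cells and lymphocytes through CXCR4, had 4 and 5 counts in control and 11 and 5 with carnosine and was not tested. Its summed ratio of carnosine to control, scaled for library size, was 2.09 (exact 95% interval 0.869 to 5.36, counting error only). With no filter on low counts, edgeR's fit gave CXCL12 a log2 fold change of 0.996 ± 1.12 (adjusted p = 0.727). Transcripts of CXCL2 and CXCL3 share 78 stretches of 101 bases, the read length, which is 4.93% of those in CXCL2 and 3.23% of those in CXCL3, so a small part of their reads could be left out or misassigned. CXCL1 shares none with them.

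Sites for NF-kB in the promoters of uncalled or untested members are shown because they are the textbook marks of NF-kB targets. RefSeq promoter windows (GRCh38.p14, 250 bases before to 50 after a start) were matched for 32 of the 40 members in 44 windows. CCL2, CCL5, CSF1, CSF3, IL34, LIF, NFKBIE and RELB had no window in the table. Each run below is read on the gene's strand, 5′ to 3′, with the match in capitals.
CXCL1: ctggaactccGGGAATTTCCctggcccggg
CXCL2: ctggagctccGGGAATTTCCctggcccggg
CXCL3: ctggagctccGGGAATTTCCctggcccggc
IL6: tatcaaatgtGGGATTTTCCcatgagtctc
NFKB1: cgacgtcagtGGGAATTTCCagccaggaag
NFKB2: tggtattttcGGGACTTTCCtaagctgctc
NFKBIA: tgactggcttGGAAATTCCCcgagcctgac
TNFAIP3: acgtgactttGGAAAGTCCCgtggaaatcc
The first 3 lie at chr4:73869304-73869333 (plus strand), chr4:74099254-74099283 (minus) and chr4:74038749-74038778 (minus), and share the same 10 bases at nearly the same distance from the start, 79, 78 and 79 bases before it. The others lie at chr7:22727117-22727146 (plus), chr4:102501300-102501329 (plus), chr10:102395674-102395703 (plus), chr14:35404811-35404840 (minus) and chr6:137867182-137867211 (plus). The NFKB2 site is the classic decamer of the immunoglobulin kappa enhancer, and the TNFAIP3 site is the same decamer read on the opposite strand.

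Matches were counted on both strands, and a palindromic site can give overlapping matches. The decamer capitalised in NFKB2 was in 67 of 35116 promoter windows of the same length (0.191%) and in those of 2 members, NFKB2 and TNFAIP3. The kB consensus was in 3956 windows (11.3%) and in 18 of the 44 member windows, belonging to 16 of the 32 matched members. A loose form, GGG and CC with any 5 bases between them, was in 20602 windows (58.7%) and in 36 of the 44. Of the called genes, only IL1R1 and CSF1R had windows, 4 and 2 respectively. The kB consensus was in 0 of them, and the loose form was in 1 window of IL1R1 and both of CSF1R. These are matches of letters in a short window and do not show binding, and members were chosen partly as known NF-kB genes.

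None of the 5 NF-kB subunits was called. RELA, which carries a transactivation domain, had 81.7 and 73.2 CPM in control and 72.8 and 73.4 CPM with carnosine (-0.08 ± 0.10, 95% interval -0.32 to 0.15; adjusted p = 0.643). NFKB1, the precursor of p50, had 49.3 and 48.1 CPM in control and 52.8 and 53.5 CPM with carnosine (0.13 ± 0.09, interval -0.09 to 0.34; adjusted p = 0.419). The carnosine libraries of NFKB1 were both higher, by a small margin. NFKB2, the precursor of p52 in the non-canonical arm, had 25.3 and 19.8 CPM in control and 26.3 and 25.5 CPM with carnosine (0.20 ± 0.14, interval -0.14 to 0.53; adjusted p = 0.417). RELB, the partner of p52, had 5.25 and 4.64 CPM in control and 5.45 and 5.82 CPM with carnosine (0.19 ± 0.17, interval -0.22 to 0.60; adjusted p = 0.536). REL had 6.66 to 6.78 CPM in control and 6.40 to 6.75 CPM with carnosine (-0.03 ± 0.15, interval -0.39 to 0.33; adjusted p = 0.919), and 43.3% of its exonic bases lie under another gene of the same strand. Of these 5 genes edgeR called 0, with 0 at an unadjusted p under 0.05 (27.4% of all genes), and DESeq2 and limma-voom called 0. The intervals reach from -0.39 (REL) to 0.60 (RELB) on the log2 scale. These are mRNA levels and do not measure the proteins or their place in the cell.

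**Figure D3:**
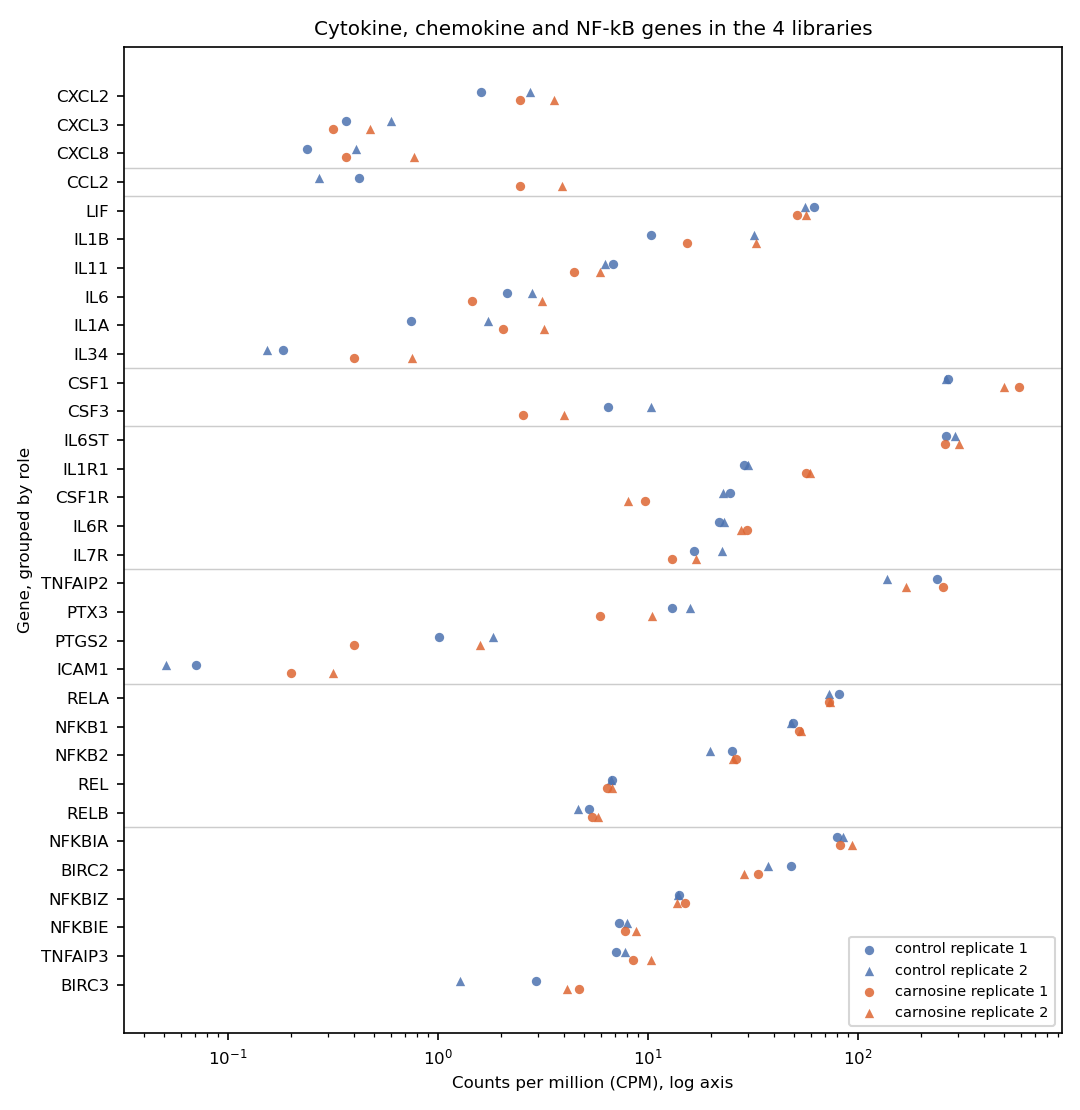
CPM (log axis) of the tested members in every library, grouped by role, with 1 marker per library (blue control, orange carnosine). CSF1, IL6ST and TNFAIP2 reach the highest CPM, and CCL2 and CSF1R show the 2 groups clearly apart.

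Inhibitors and feedback genes gave no call. The mRNA of some of them, such as NFKBIA and TNFAIP3, is a common readout of NF-kB activity, which was not itself measured here. NFKBIA, which encodes IkB-alpha, had 79.5 and 85.2 CPM in control and 82.0 and 93.8 CPM with carnosine (0.09 ± 0.11; adjusted p = 0.63). TNFAIP3, the deubiquitinase A20, had 7.09 and 7.82 CPM in control and 8.51 and 10.4 CPM with carnosine (0.34 ± 0.16; adjusted p = 0.235). Its carnosine libraries were both above the controls. NFKBIE (IkB-epsilon) had 7.27 and 8.01 CPM in control and 7.83 and 8.80 CPM with carnosine, and NFKBIZ (IkB-zeta, a nuclear cofactor) had 14.1 and 13.9 CPM in control and 15.05 and 13.7 CPM with carnosine. Their log2 fold changes were 0.12 ± 0.15 and 0.04 ± 0.12 (adjusted p = 0.664 and 0.865), and both overlapped between groups.

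BIRC2 and BIRC3, the ubiquitin ligases cIAP1 and cIAP2, pointed in opposite directions without a call. BIRC2 had 48.3 and 37.6 CPM in control and 33.6 and 28.6 CPM with carnosine (-0.47 ± 0.15; adjusted p = 0.1004). BIRC3 had 2.95 and 1.28 CPM in control and 4.71 and 4.11 CPM with carnosine (1.05 ± 0.38; adjusted p = 0.129). Neither gene's groups overlapped. BIRC3 was called without control replicate 1 (1.78, adjusted p = 0.0152). Over the 6 inhibitors and feedback genes edgeR called 0, with 2 at an unadjusted p under 0.05 (BIRC2 and BIRC3, beside 27.4% of all genes), and DESeq2 and limma-voom called 0.

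PTX3, a secreted pattern-recognition protein induced by IL-1, had 13.1 and 16.0 CPM in control and 5.95 and 10.4 CPM with carnosine (-0.83 ± 0.26; adjusted p = 0.0987). Both carnosine libraries were lower. DESeq2 called it (adjusted p = 0.0241), and so did edgeR without carnosine replicate 2 (-1.29, adjusted p = 0.00652). TNFAIP2, a protein induced by tumour necrosis factor, had 238 and 139 CPM in control and 255 and 170.0 CPM with carnosine (0.17 ± 0.28, adjusted p = 0.739). Replicate 1 was the higher library in both groups, and the same replicate number was higher in both in 65.2% of all genes. PTGS2, the inducible cyclooxygenase COX-2, had 1.01 and 1.84 CPM in control and 0.399 and 1.59 CPM with carnosine. Its carnosine replicates differed 3.98-fold, the widest gap among the tested members. The leukocyte adhesion molecules were scarce: ICAM1 had 5 and 3 counts in control and 12 and 16 with carnosine (adjusted p = 0.108), and VCAM1 had 1, 0, 0 and 1. Exons of other genes on the opposite strand cover 23.6% of ICAM1 and 20.7% of IL6, and whether the counting used strand is unknown here, so part of those counts could be from the other gene. Of the 4 adhesion and effector genes tested edgeR called 0, with 2 at an unadjusted p under 0.05 (27.4% of all genes), DESeq2 called 1 (PTX3) and limma-voom 0.

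By the median, replicates of the members differed more than those of all genes. These ratios include counting error. The median ratio of the higher to the lower replicate was 1.21 in both groups for the 32 tested members, beside 1.12 (control) and 1.15 (carnosine) over all genes. In 19 of the 32 this ratio, in the group where it was larger, was above the fold between groups. This count and the next were not made over all genes, so they describe the members and set them against nothing. It was above 2 in 6 genes: PTGS2 (3.98), IL1B (3.07), IL1A (2.33), BIRC3 (2.31), IL6 (2.16) and CXCL8 (2.12). Of the called genes, IL1R1, CSF1 and CSF1R had replicate ratios of at most 1.05, 1.19 and 1.20, and CCL2 and CSF3 of 1.58 and 1.59.

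**Figure D4:**
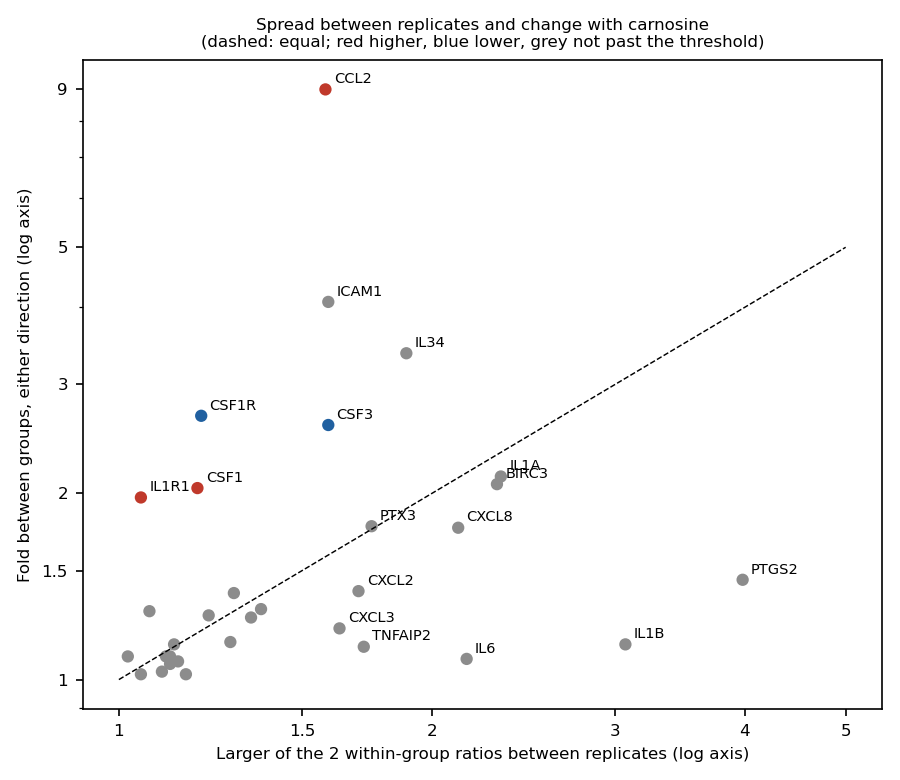
Fold between groups from the fit (y axis) against the larger of the 2 replicate ratios (x axis) for each tested member, both on log axes, with a line where they are equal. CCL2, CSF1, IL1R1, CSF1R and CSF3 lie above the line, and 19 of the 32 genes lie below it, a count not made over all genes.

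Many cytokine mRNAs carry AU-rich elements in the 3′ UTR, which mark them for rapid decay. The nonamer ATTTATTTA was in the 3′ UTR of 8 of the 40 members (20%; BIRC3, CSF2, CXCL1, CXCL2, CXCL8, IL11, IL1B and PTGS2), beside 889 of 12295 tested protein-coding genes (7.23%). The search used the sense strand of 1 GENCODE 29 transcript per gene and allowed overlapping matches. Among the 32 tested members alone, 6 held the nonamer (18.75%). The median 3′ UTR was 818 bases in all 40 members, 1102 bases in the 32 tested members and 1117 bases in the tested protein-coding genes. Windows of 30 bases around the densest run are shown for 5 of these genes, all uncalled or untested, with each pentamer ATTTA in capitals.
CSF2: tttaaaatATTTATTTATTTATTTATTTAa
CXCL2: agtcttctATTTATTTATTTATTTATTTAt
CXCL1: agtcttctATTTATTTATTTAttcattagt
IL1B: gcttccctATTTATTTATTTAtttgtttgt
PTGS2: atgatcatATTTATTTATTTAtatgaacca
CXCL1 and CXCL2 hold the same first 8 bases and differ in how many pentamers follow, 3 and 5. None of the 5 called genes held the nonamer, although CSF3 held 7 copies of ATTTA.

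The other genes of the pathway were read from 5 lists of 128 genes, of which 103 were tested. Of these 103, 10 rose and 4 fell, 13.6% beside 8.31% of all genes. Among 34 tested adaptors, kinases, inhibitors and deubiquitinases of NF-kB signalling, 3 rose and 2 fell, with a median log2 fold change of -0.06. The share called was 14.7%, beside 8.31% of all genes. MAP3K8, a kinase between the NF-kB and ERK pathways, rose from 2.80 and 3.75 to 7.45 and 8.06 CPM (1.25 ± 0.20; adjusted p = 0.0205). MALT1, the paracaspase that cleaves A20, rose from 52.9 and 44.6 to 83.4 and 87.2 CPM (0.81 ± 0.11; adjusted p = 0.0163). TBK1, an IKK-related kinase of interferon induction, rose from 31.8 and 35.9 to 48.0 and 52.5 CPM (0.57 ± 0.11; adjusted p = 0.03). All 3 had both carnosine libraries above both controls. IKBKE, the relative of TBK1, fell from 37.7 and 29.7 to 19.1 and 16.0 CPM (-0.94 ± 0.16; adjusted p = 0.0212). RNF31, the catalytic subunit of the linear ubiquitin ligase, fell from 27.8 and 28.9 to 17.5 and 18.1 CPM (-0.67 ± 0.11; adjusted p = 0.0197), and 34.8% of its exonic bases lie under another gene of the same strand. The list's 5 calls were 3 without control replicate 2. TBK1 was lost without control replicate 1 (adjusted p = 0.142) and without control replicate 2 (0.0564), and RNF31 without control replicate 2 (0.0742).

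Among 22 tested receptors upstream of NF-kB or of other cytokines, 4 rose and 1 fell, with a median of 0.11. The share called was 22.7%, beside 8.31% of all genes. TNFRSF11B, the decoy receptor osteoprotegerin, rose from 3.61 CPM in each control to 8.23 and 9.31 CPM (1.28 ± 0.17; adjusted p = 0.0137). TLR6 rose from 12.1 and 10.7 to 23.3 and 21.3 CPM (0.97 ± 0.13; adjusted p = 0.0142). These 2 were called without each library in turn. TLR4, the receptor for lipopolysaccharide, rose from 43.7 and 46.1 to 62.4 and 73.4 CPM (0.60 ± 0.11; adjusted p = 0.0284). IL17RA rose from 36.3 and 33.9 to 48.8 and 47.7 CPM (0.46 ± 0.10; adjusted p = 0.0364). CD40, a costimulatory receptor of the tumour necrosis factor family, fell from 3.18 and 3.08 to 1.36 and 1.57 CPM (-1.10 ± 0.24; adjusted p = 0.0393). TLR4 was lost without either control (adjusted p = 0.101 and 0.0744). IL17RA was lost without control replicate 1 (0.119) or 2 (0.222) and CD40 likewise (0.133 or 0.115), and both without carnosine replicate 1 (0.0683 and 0.0851). The 5 calls were then 2 without either control and 3 without carnosine replicate 1.

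Of 17 tested genes in the gp130 and JAK-STAT arm (median 0.15), 5.88% were called, beside 8.31% of all genes. The only call was STAT3, the transcription factor that gp130 activates. It rose from 182 and 154 CPM in control to 258 and 285 CPM with carnosine (0.69 ± 0.12; adjusted p = 0.0261). The call was lost without control replicate 2 (0.58, adjusted p = 0.141). Of 35 other NF-kB targets only 19 had enough counts to test, and 10, TNF among them, had no count in any library. In this list 2 rose and 1 fell (median 0.19), 15.8% of those tested, beside 8.31% of all genes. C3, the central complement component, rose from 6.10 and 5.52 to 8.81 and 11.0 CPM (0.77 ± 0.17; adjusted p = 0.0435). CD70, a ligand of the tumour necrosis factor family, rose from 20.5 and 20.8 to 27.5 and 34.4 CPM (0.58 ± 0.13; adjusted p = 0.0464). GADD45B, a stress sensor, fell from 19.5 CPM in each control to 12.7 and 13.0 CPM (-0.60 ± 0.11; adjusted p = 0.0293).

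These 3 targets depended on single libraries. C3 was lost without either control (adjusted p = 0.087 and 0.158) and without carnosine replicate 2 (0.0935). CD70 was lost without the same 3 libraries (0.1398, 0.134 and 0.0921) and under limma-voom (0.052). GADD45B was lost without either control (0.108 and 0.1097) and without carnosine replicate 1 (0.0516). The list then had 0 calls without control replicate 1, and 1 without control replicate 2 (SERPINB2) or carnosine replicate 2 (GADD45B). Of 11 genes for decay and control of cytokine mRNA, edgeR called 0 (1 at an unadjusted p under 0.05, beside 27.4% of all genes), as did DESeq2 and limma-voom, but 3 (DUSP1, KHSRP and ZFP36) were called without carnosine replicate 1. The 2 with the most counts were KHSRP (208, 169, 153 and 120.5 CPM; -0.47; adjusted p = 0.112) and ZFP36L1 (187, 149, 187 and 162 CPM; 0.05; adjusted p = 0.858), both proteins that bind AU-rich elements.

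**Figure D5:**
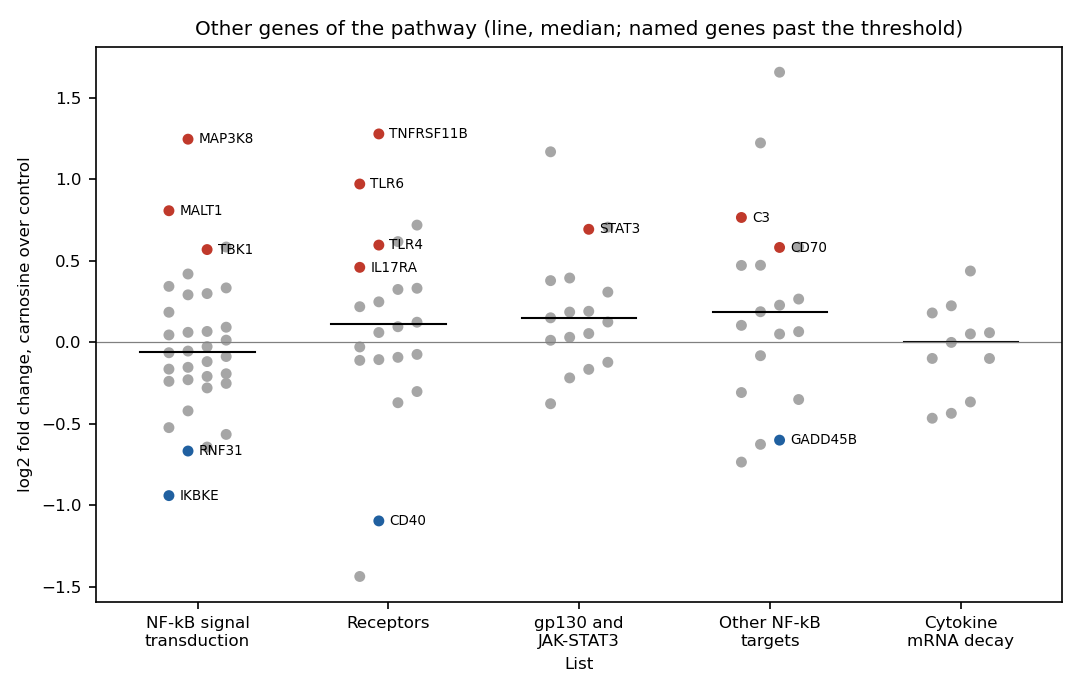
Log2 fold change (carnosine over control, y axis) of every tested gene in each of the 5 pathway lists, with called genes coloured and named and a line at each list's median. Medians lie between -0.06 and 0.19, and called genes appear on both sides of 0 in the signal transduction, receptor and other target lists.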

How the data were processed

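Total RNA from 4 libraries was sequenced after depletion of ribosomal RNA, with a stranded kit and paired reads of 101 bases, per the labels' protocols. The authors deposited raw gene counts as whole numbers, not normalized; bcl2fastq 2.17.0, HISAT2 2.1.0, HTSeq 0.6.1 and the build hg38 are named, per the submitters' processing notes. The annotation release, use of strand and handling of multi-matching reads were not given in the sources used here, and they bear on overlapping genes and near-identical copies. The members and gene lists were chosen with earlier results of these data known, so their counts are descriptions.

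Library totals were 71766267 and 59155538 counts (control replicates 1 and 2) and 57728762 and 51632970 counts (carnosine replicates 1 and 2); 3 counts, the limit that a count of 0 allows, are 0.0422 to 0.0596 CPM. Genes were kept by filterByExpr (at least 10 counts, taken as 0.171 CPM, in 2 libraries and 15 in total), which left 16340 genes. Libraries were scaled by TMM. The comparison was edgeR 4.0.16's quasi-likelihood F test in R 4.3.3, two-sided, with group as the only term and 2 residual degrees of freedom, and Benjamini-Hochberg adjustment over all genes tested at 0.05. Each SE was the size of the log2 fold change over the square root of F, and 95% intervals use 6.92 degrees of freedom; both are approximate. The script was tested on simulated counts. Coordinates, exon lengths and 3′ UTRs came from GENCODE 29 (GRCh38), which held 57836 of the 58219 identifiers without version, and promoters from RefSeq (GRCh38.p14). Protein sequences were not used here.

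Members with a mean count of at least 10, or past the threshold, were given with each library's value. Fold changes went to members past the threshold or with a mean count of at least 100. The untested CSF2 and CXCL12 were also given the ratio of their summed counts and their fit with no filter. From each pathway list, up to 6 genes past the threshold were named, or the 2 with the most counts where none passed. Low counts that were untested or singled out were named after their values were seen. Alternatives were other scalings, DESeq2 1.42.0, limma 3.58.1 (voom), other filters, the replicate number as a block, and each library left out.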

Additional observations from a re-analysis of the deposited data

How the results depend on the processing

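CCL2, CSF1, IL1R1 and CSF1R were called under every scaling, filter and tool tried and without each library in turn; CSF3 was lost without control replicate 2 or carnosine replicate 1. With no filter on low counts, 3145 of 26103 genes were called over all, beside 1358 of 16340 with the filter. Of the 38 members then tested, 10 were called (6 higher, 4 lower, with BIRC2, BIRC3, IL1A, IL34 and PTX3 added). The added member calls thus came with more calls over all genes. In the lists, 9 of 35 signal transduction genes, 8 of 25 other targets and 7 of 26 receptors were called. So were 4 of 11 decay genes and 4 of 20 genes of the gp130 arm. DESeq2 called 2187 of 16340 genes over all (13.4%) and 6 of 32 members (PTX3 added). It called 8 of 34 signal transduction genes, 5 of 19 other targets and 3 of 17 genes of the gp130 arm. The cause of these differences was not tested. Other scalings moved the median of all genes to at most 0.0255 on the log2 scale.

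Libraries with the same replicate number deviated together across genes (correlation 0.315), but with 2 pairs and no label that states a pairing the numbers were not taken as pairs. With the replicate block, 5767 of 16340 genes were called over all (35.3%), and 14 of 32 members (9 higher, 5 lower). The added members were BIRC2, BIRC3, IL1A, IL1B, IL34, IL6R, IL7R, PTX3 and TNFAIP3. In the lists, 5 of 11 decay genes, 18 of 34 signal transduction genes and 10 of 19 other targets were called. So were 9 of 22 receptors and 4 of 17 genes of the gp130 arm.

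Leaving out 1 library at a time, with the lone library of its group assumed to vary like the others, gave 505 (without control replicate 2) to 1595 calls over all genes, with 635 without control replicate 1. The median log2 fold change of the tested members was 0.05 to 0.18 over these fits. Calls ranged from 0 to 3 in the decay list (median -0.10 to 0.080), 3 to 7 in signal transduction (-0.13 to -0.042), 0 to 4 in other targets (0.16 to 0.23), 2 to 6 in receptors (0.016 to 0.23) and 0 to 2 in the gp130 arm (0.10 to 0.22). Log2 fold changes that crossed 0, all of uncalled genes, ranged from -0.60 to 0.10 (CXCL3), -0.010 to 0.18 (NFKBIA), -0.028 to 0.10 (NFKBIZ), -0.075 to 0.0036 (REL), -1.83 to 0.16 (PTGS2), -0.17 to 0.61 (TNFAIP2), -0.45 to 1.21 (IL1B), -0.76 to 0.35 (IL6), -0.086 to 0.13 (IL6ST) and -0.10 to 0.22 (ZFP36L1). With 2 libraries a group, uncalled members with wide replicate ratios could differ by sizes within their intervals.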
